A study of Mus musculus with 10 samples.

Results

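The forkhead (Fox) family comprises transcription factors that share a winged-helix DNA-binding domain, and its transcripts were examined in whole lungs of mouse pups with 1 or 2 copies of Dll4. Members were the protein-coding genes of the deposited table whose symbol was Fox, a letter from a to s and a number. Foxj1 and Foxm1 were set apart from this list, as were Foxred1 and Foxred2, whose names match only in part. This gave 42 members of 35275 genes in the table, of which 22026 were protein coding. The lungs came from CD1 pups at postnatal day 6. Heterozygous pups were Dll4+/-, with a lacZ allele of Dll4 according to the study, and the controls were Dll4+/+. Values were FPKM (fragment counts divided by exon length in kilobases and by library size), a unit that corrects for transcript length and depth, in 4 Dll4+/- libraries (replicates 1 to 4) and 4 Dll4+/+ libraries (replicates 3 to 6). Dll4+/+ replicates 1 and 2 were not analysed here.

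Most forkhead proteins can bind DNA as monomers at sites built around a short core, and many act as lineage or state regulators rather than as general factors. In lung, FoxA proteins act in the endoderm-derived epithelium, FoxF proteins in the mesenchyme and in capillary endothelium downstream of Hedgehog signals from the epithelium, FoxP proteins as repressors in the airway and distal epithelium, and FoxO proteins in many cell types, where insulin and growth factor signals through AKT keep them out of the nucleus. Foxc1, Foxc2, Foxo1 and Foxn4 have each been tied to Notch signalling or vessel growth, and DLL4 is the Notch ligand of sprouting endothelium.

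Recovered depth ran from 17169342 to 22885243 fragments per library, and 13248 to 13721 genes had an FPKM of 1 or more. Dll4 itself was at 11.4, 15.6, 20.7 and 11.6 FPKM in Dll4+/- replicates 1, 2, 3 and 4, and at 22.7, 25.8, 30.7 and 31.3 in Dll4+/+ replicates 3, 4, 5 and 6. Every heterozygous library lay below every control library, and the means were 14.8 ± 4.36 and 27.6 ± 4.12 FPKM (SD, n = 4 each, two-sided exact permutation p = 0.0286, the smallest that 4 against 4 libraries can give). With Dll4+/+ replicate 4, 5 or 6 left out, the exact permutation p was 0.0571. Lung identity was clear from the markers, with summed alveolar type II markers between 13035 and 40037 FPKM and all 10 endothelial markers above the filter. Dll4+/- replicate 2, labelled female, had Xist at 0.273 FPKM and the Y-linked Ddx3y at 20.3 FPKM, which goes against its label. 3 libraries stood apart from the other 5. Sample weights in limma were 0.128 for Dll4+/- replicate 1, 0.245 for Dll4+/- replicate 4 and 0.282 for Dll4+/+ replicate 3. Many results are also given without Dll4+/- replicates 1 and 4, or without 1 of the 3 libraries. The 3 were not left out together.

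The stretch before the transcription start is shown for 4 members on which later values turn: Foxf2, the second most abundant member, Foxa1, the only member with a match to the forkhead core in this window, Foxo3, the tested member with the largest excess in Dll4+/- replicate 1, and Foxn4, which the study named. Each was read 5′ to 3′ on the gene's strand from the RefSeq window of 250 bases before the start (GRCm38.p6), leaving out bases that GENCODE M21 places in an exon of a protein-coding gene. In Foxf2, Foxo3 and Foxn4 the capitals mark CG dinucleotides. In Foxa1 they mark GTAAACA, which is the forkhead core TGTTTAC on the other strand. The Foxa1 stretch precedes the start of one annotated transcript and lies in an intron of another, which begins further upstream. Foxf2 is on the plus strand at chr13:31625566-31625815, and Foxa1 on the minus strand at chr12:57546122-57546361. Foxo3 is on the minus strand at chr10:42276756-42276945, and Foxn4 on the minus strand at chr5:114273808-114274011.
Foxf2: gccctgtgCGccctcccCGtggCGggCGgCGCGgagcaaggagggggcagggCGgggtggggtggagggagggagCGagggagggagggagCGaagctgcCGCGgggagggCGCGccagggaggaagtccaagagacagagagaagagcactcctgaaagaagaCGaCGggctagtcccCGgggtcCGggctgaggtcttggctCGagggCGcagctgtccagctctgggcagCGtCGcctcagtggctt
Foxa1: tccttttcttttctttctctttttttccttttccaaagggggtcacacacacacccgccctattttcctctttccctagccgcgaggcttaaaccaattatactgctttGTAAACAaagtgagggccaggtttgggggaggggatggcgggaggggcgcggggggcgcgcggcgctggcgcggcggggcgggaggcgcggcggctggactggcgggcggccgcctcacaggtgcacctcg
Foxo3: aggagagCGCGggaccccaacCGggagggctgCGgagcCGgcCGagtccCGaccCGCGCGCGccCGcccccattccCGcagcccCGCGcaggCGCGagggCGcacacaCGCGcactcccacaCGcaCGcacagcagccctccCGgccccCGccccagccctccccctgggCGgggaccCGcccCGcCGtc
Foxn4: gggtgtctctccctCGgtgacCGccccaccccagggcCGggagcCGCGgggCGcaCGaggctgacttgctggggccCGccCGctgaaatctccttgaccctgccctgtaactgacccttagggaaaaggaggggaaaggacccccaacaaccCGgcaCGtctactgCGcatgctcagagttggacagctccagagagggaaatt

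These stretches were rich in CG, with 21 CG dinucleotides in 250 bases for Foxf2 and 28 in 190 bases for Foxo3, against 12 in 204 bases for Foxn4. RefSeq held windows for 28 of the 42 members, 33 windows in all. Their median GC content was 62.0%, against 52.4% over all 32851 windows of the same length. The forkhead core, searched on both strands, was found in 3.03% of member windows and in 3.17% of all windows. The core TGGGAA bound by CSL, the DNA-binding partner of Notch, was found in 9.09% of member windows and in 21.6% of all windows. It lay before Foxe3, Foxi1 and Foxr2, none of which was measured above 0.1 FPKM in any library. These matches describe letters in this window only.

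Forkhead transcripts spanned a wide range of abundance, with a few members far above the rest. Of the 42 members, 12 had a Dll4+/+ mean of 10 FPKM or more, 9 lay between 1 and 10, 5 between 0.1 and 1, and 16 below 0.1. In all 8 libraries 27 members were above 0, and 18 reached 1 FPKM. Foxf1 was the most abundant member and Foxf2 the second in each of the 8 libraries. Foxf1 made up 30.6% to 46.6% of the summed forkhead FPKM, which ran from 395 in Dll4+/- replicate 1 to 533 in Dll4+/- replicate 3. The sum of the FoxF pair was 56.6% of the family total in the Dll4+/+ libraries and 51.4% in the Dll4+/- libraries. FoxP members followed with 11.8% of the family total in Dll4+/+ libraries and FoxO members with 8.58%, and then FoxA with 6.10%, FoxJ with 5.42% and FoxK with 5.25%. Because whole lung was measured, fewer cells of a type and less RNA per cell cannot be told apart in any of these values.

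**Figure D1:**
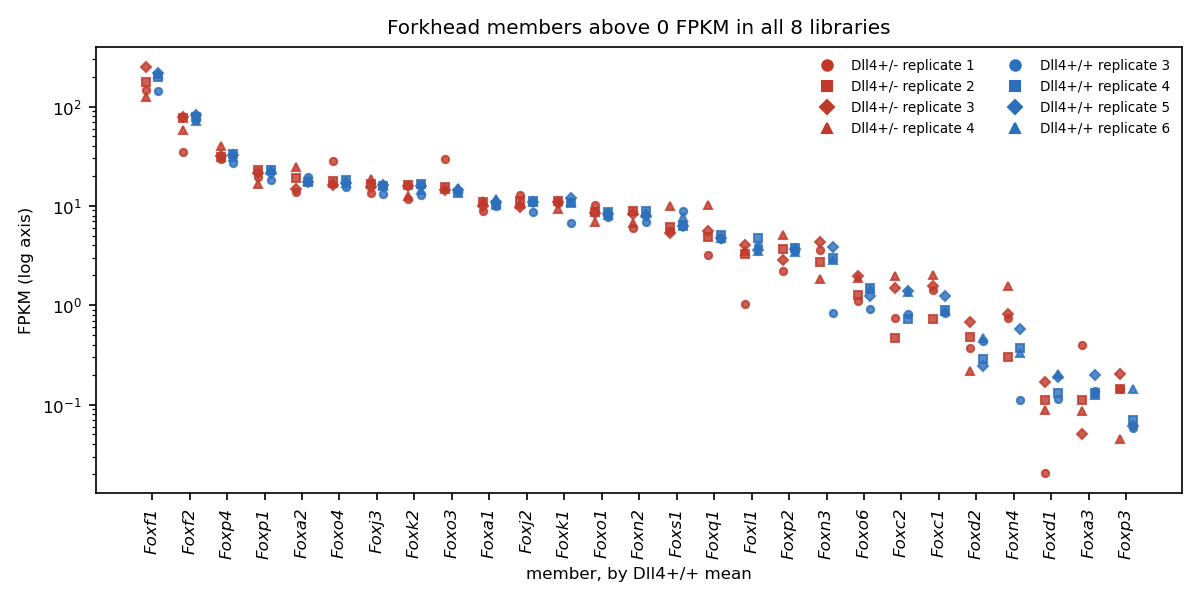
FPKM on a log axis of the 27 forkhead members above 0 in all 8 libraries, ordered by their Dll4+/+ mean. Each point is 1 library, red for Dll4+/- and blue for Dll4+/+, with a marker shape for each replicate. Foxf1 and Foxf2 lie above all other members in every library, and the 2 genotypes overlap for each member shown.

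Loss of 1 Dll4 copy was not accompanied by a detectable change in any forkhead member. The test, in limma on log2(FPKM + 1), took genes that reached an FPKM of 1 in 4 libraries or more, and 22 members passed this filter. At an adjusted p of 0.05, 0 of 22 members and 0% of the 13610 genes tested were called. Dll4 itself was not called either, with a log2 fold change of -0.88 (SE 0.19, limma adjusted p = 0.811). At an unadjusted p of 0.05, 0 of 22 members were called against 3.36% of all genes tested, and no tested member had groups that did not overlap, against 3.12% of all genes. In the exact permutation test on FPKM, which also covers members below the filter, 0 of 31 members were under 0.05, against 3.14% of the 20915 genes above 0 in at least 4 libraries. Of the 22 tested members 12 had a higher and 10 a lower mean log2 value in Dll4+/- lungs. Their median log2 fold change was 0.03, and that over all genes was -0.02.

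Fitted differences ran from -0.40 for Foxl1 to 0.28 for Foxc1 on the log2(FPKM + 1) scale, a scale that understates changes of genes with low FPKM. The smallest unadjusted limma p of a member was 0.138, for Foxf2, and adjusted p-values from limma lay between 0.811 and 0.983. All 22 of the 95% intervals included 0, and 21 lay within 1 log2 unit on either side. The interval of Foxl1 reached -1.0002. Half-widths of the intervals ran from 0.251 for Foxa1 to 0.695 for Foxn3. Changes smaller than these could be missed with 4 libraries a group. So could larger ones at the adjusted threshold, as for Dll4 (-0.88).

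**Figure D2:**
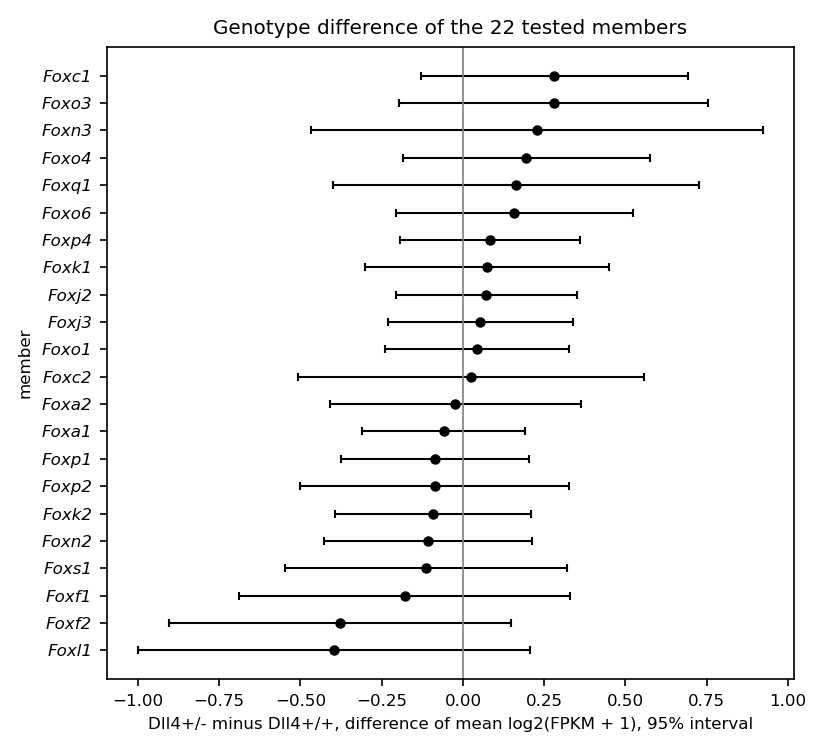
Difference between Dll4+/- and Dll4+/+ means of log2(FPKM + 1) for the 22 tested members, ordered by size. Points are limma estimates and bars are 95% intervals, and every bar crosses 0, from Foxl1 at -0.40 to Foxc1 at 0.28.

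Foxf1, required for lung mesenchyme and alveolar capillaries, and its paralogue Foxf2, expressed in the same mesenchyme and in pericytes, were the leading members. Foxf1 (chr8:121084386-121088144, plus strand) was at 145, 178, 248 and 126 FPKM in Dll4+/- replicates 1 to 4 and at 143, 199, 220 and 213 in Dll4+/+ replicates 3 to 6. The lowest 3 values came from the 3 libraries that stood apart, which belong to both genotypes, and the highest from a heterozygous library. Mean FPKM was 174 ± 53.9 (SD, n = 4) in heterozygous and 194 ± 35.0 (SD, n = 4) in control lungs, a log2 fold change of -0.18 (SE 0.23, limma adjusted p = 0.836). Without Dll4+/- replicates 1 and 4 the difference turned to 0.14. It was -0.32 without Dll4+/+ replicate 3 and -0.36 without Dll4+/- replicate 3, and with any other single library left out it lay between -0.21 and -0.04.

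Foxf2 (chr13:31625816-31631403, plus strand) was at 34.7, 76.8, 77.9 and 57.8 FPKM in Dll4+/- replicates 1 to 4 and at 74.5, 79.2, 82.9 and 71.7 in Dll4+/+ replicates 3 to 6. The heterozygous spread came from replicates 1 and 4, and the other 2 heterozygous libraries lay among the controls. The means were 61.8 ± 20.3 and 77.1 ± 4.97 FPKM (SD, n = 4 each), and the log2 fold change of -0.38 (SE 0.23) became 0.01 without Dll4+/- replicates 1 and 4. The ratio of Foxf1 to Foxf2 reached 4.18 in Dll4+/- replicate 1, while elsewhere it ranged from 1.92 to 3.19. Foxf1 exons overlap Gm27530 and Foxf2 exons overlap Gm27516, both on the opposite strand, and the sources used here do not state whether fragments were assigned by strand.

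Both FoxF genes sit in clusters of forkhead genes. On chromosome 8, Foxc2 begins 28026 bases after Foxf1 and Foxl1 begins 9044 bases after Foxc2, all on the plus strand. On chromosome 13, Foxf2 begins 64839 bases after Foxq1 and Foxc1 begins 175229 bases after Foxf2. Abundance did not follow position. Foxf1 exceeded its neighbour Foxc2 by 64.4 to 379 times in FPKM across the libraries, and Foxl1 by 35.9 to 142 times. The lncRNA gene Fendrr, which lies upstream of Foxf1 on the opposite strand, was at 206, 165, 160 and 146 FPKM in Dll4+/- replicates 1 to 4 and at 146, 158, 170 and 141 in Dll4+/+ replicates 3 to 6. Fendrr was highest in Dll4+/- replicate 1, a library in which Foxf1 was among the lowest, and limma put its genotype difference at 0.13 log2 units (SE 0.14, adjusted p = 0.818).

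**Figure D3:**
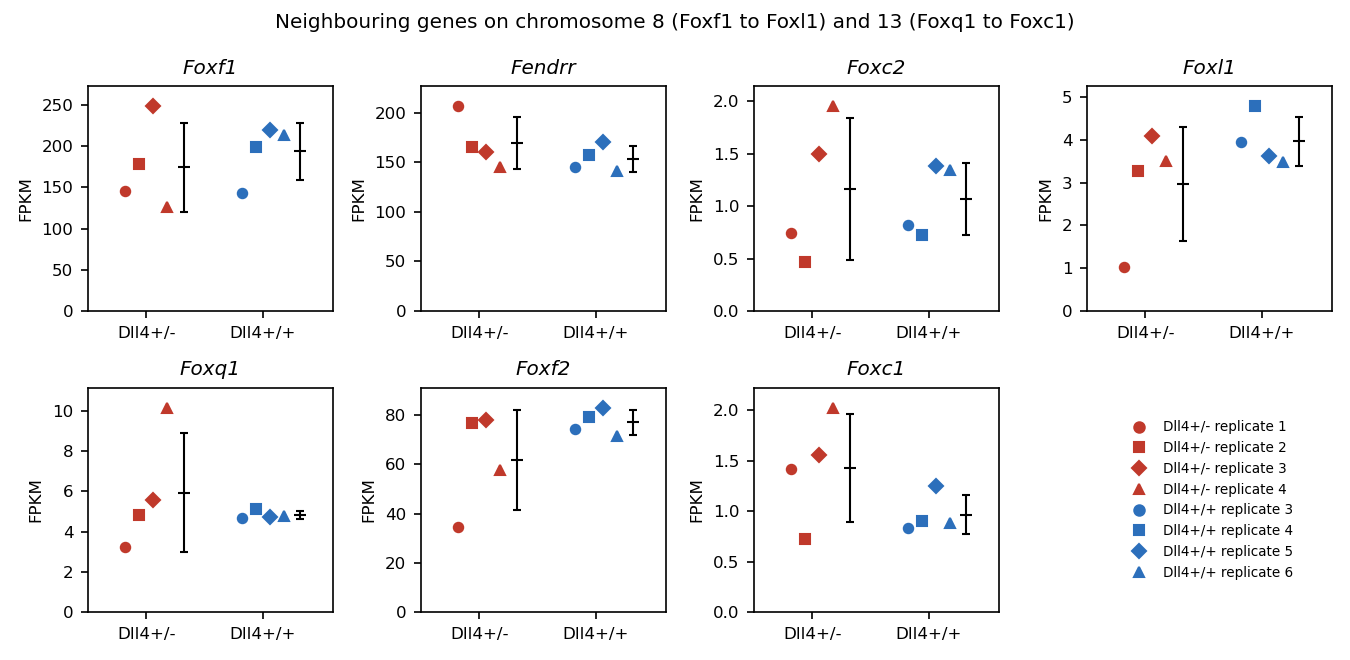
FPKM by genotype of the forkhead genes in the chromosome 8 cluster, with Fendrr, and in the chromosome 13 cluster. Each point is 1 library, with the mean and SD of the genotype beside it (n = 4). Dll4+/- replicate 1 (circle) is the highest for Fendrr and the lowest for Foxf2, Foxl1 and Foxq1, and Dll4+/- replicate 4 (triangle) is the highest for Foxq1, Foxc1 and Foxc2.

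Foxl1, a mesenchymal factor known in gut and lung as a Hedgehog target, was at 1.03, 3.26, 4.08 and 3.499 FPKM in Dll4+/- replicates 1 to 4 and between 3.48 and 4.78 in Dll4+/+ libraries. The value of Dll4+/- replicate 1 was 0.269 times the mean of the other 7 libraries, the largest relative shortfall of any tested member in that library. The fitted log2 fold change of Foxl1 went from -0.40 (SE 0.27) to -0.10 without it. Of 9 Hedgehog pathway genes tested, 2 were higher and 7 lower in Dll4+/- lungs, and 0 passed at an unadjusted p of 0.05, with a median log2 fold change of -0.18. Without Dll4+/- replicates 1 and 4 that median was 0.12, and 1 gene was higher under an unadjusted p of 0.05. In that fit 523 of the 13610 genes tested were under it in either direction. In Dll4+/- replicate 1, 5 of these 9 genes (Shh, Ptch1, Gli2, Gli3 and Hhip) lay more than 0.5 log2 units below the mean of the other libraries and 0 above, where 30.7% of all genes tested differed by that much in either direction. Shh, the epithelial ligand, was at 9.48 FPKM there and at 21.1 to 29.1 FPKM elsewhere. Ptch1 was at 6.81 FPKM in Dll4+/- replicate 1 but lowest in Dll4+/+ replicate 3, at 3.52 FPKM, where Foxl1 was at 3.96 FPKM. The part of the Hedgehog genes in the Foxl1 values was not tested.

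The vascular genes listed as downstream of FoxF1 split between the 2 outlying heterozygous libraries. Of 9 genes tested, 5 were higher and 4 lower in Dll4+/- lungs, with a median log2 fold change of 0.0031 and 0 under an unadjusted p of 0.05. Without Dll4+/- replicates 1 and 4 the median was 0.15, and 2 genes were higher under an unadjusted p of 0.05. In that fit 523 of the 13610 genes tested were under it in either direction. In Dll4+/- replicate 1, 5 of 9 lay more than 0.5 log2 units above the other libraries, where 30.7% of all genes differed by that much in either direction. The opposite held in Dll4+/- replicate 4, in which 8 of 9 lay more than 0.5 below, where 17.5% of all genes differed by that much. Cdh5, which encodes VE-cadherin, was at 229 FPKM in the former and 70.3 FPKM in the latter, against 114 to 193 FPKM in the other 6 libraries. Foxf1 was low in both libraries. Of 10 endothelial markers, 7 were more than 0.5 log2 units below the other libraries in Dll4+/- replicate 4, but the lists share genes. Kdr, Tek, Tie1, Pecam1 and Cdh5 were counted in both. The summed level of the endothelial markers ran from 1129 to 1805 FPKM in Dll4+/- and from 1511 to 1656 FPKM in Dll4+/+ libraries, with no marker at 0. Their part in the Foxf1 values was not tested.

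Forkhead transcripts also differed from library to library. For this description, made after the values had been seen, each library was set against the mean of the other 7 on the log2(FPKM + 1) scale. In Dll4+/- replicate 1, 6 of 22 tested members differed by more than 0.5 log2 units, against 30.7% of all genes tested. Foxo3 and Foxo4 were above, and Foxf2, Foxl1, Foxp2 and Foxq1 below. In Dll4+/- replicate 4, 6 of 22 members differed by that much, against 17.5% of all genes, with Foxa2, Foxc1, Foxc2, Foxq1 and Foxs1 above and Foxf1 below. In Dll4+/+ replicate 3, 2 of 22 members did, against 18.2% of all genes, and both of them, Foxk1 and Foxn3, were below. The member counts of Dll4+/- replicate 1 and Dll4+/+ replicate 3 were near or under these background shares. The SD of log2(FPKM + 1) was larger in Dll4+/- than in Dll4+/+ libraries for 20 of 22 members (90.9%), and for 73.5% of all genes tested.

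**Figure D4:**
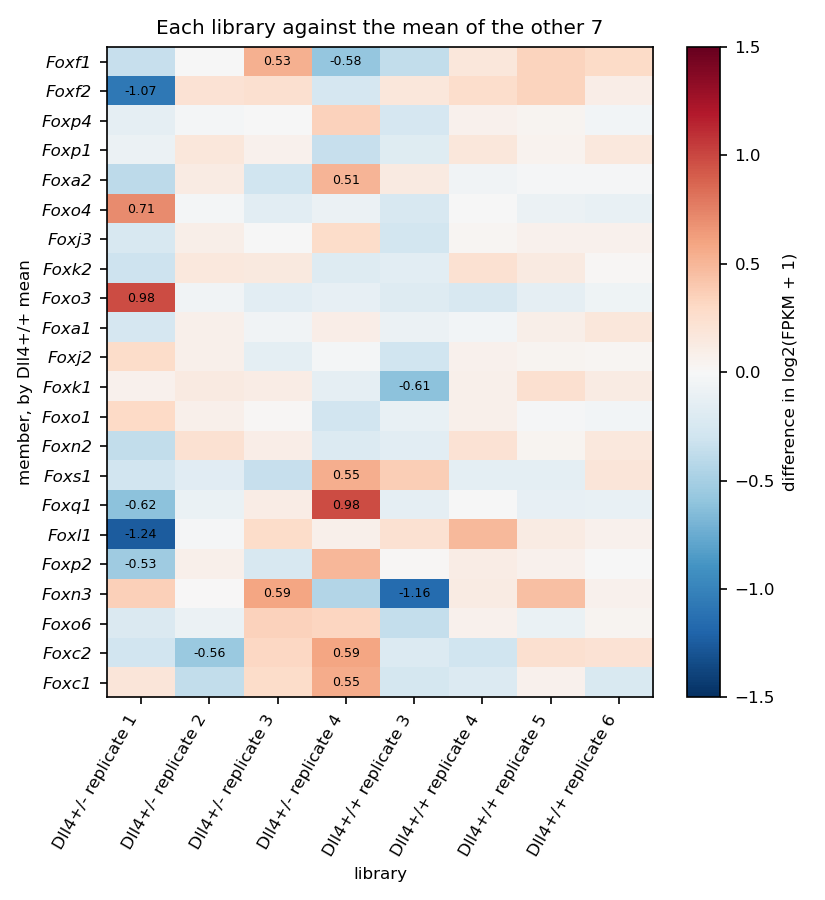
Difference in log2(FPKM + 1) between each library and the mean of the other 7 for the 22 tested members, from blue (lower) to red (higher), with values printed where they exceed 0.5 either way. The strongest colours lie in Dll4+/- replicates 1 and 4 and in Dll4+/+ replicate 3, and Foxq1 is low in Dll4+/- replicate 1 and high in Dll4+/- replicate 4.

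FoxO factors drive genes of cell cycle arrest, stress resistance and fasting metabolism when insulin signalling is low, and Foxo3 and Foxo4 stood out in a single library. Foxo3 (chr10:42181841-42276755, minus strand) was at 29.6, 15.4, 14.3 and 14.7 FPKM in Dll4+/- replicates 1 to 4 and at 14.05, 13.6, 14.6 and 15.3 in Dll4+/+ replicates 3 to 6. Foxo4, on the X chromosome, was at 28.5, 17.8, 16.4 and 17.1 FPKM in Dll4+/- replicates 1 to 4 and at 15.5, 18.1, 17.1 and 16.9 in Dll4+/+ replicates 3 to 6. Dll4+/- replicate 1 alone was high, at 2.03 times the mean of the other libraries for Foxo3 and 1.68 times for Foxo4, while the other 7 libraries lay within narrow ranges and the genotypes overlapped.

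The genotype differences of both genes rested on that library. The log2 fold change of Foxo3 was 0.28 (SE 0.21, limma adjusted p = 0.811) with all libraries and 0.04 without Dll4+/- replicate 1. For Foxo4 it was 0.19 (SE 0.17, limma adjusted p = 0.812) and then 0.02. Foxo1, the FoxO of endothelial and metabolic control, was at 10.2 FPKM in Dll4+/- replicate 1 and at 6.83 to 8.77 in the other libraries. Foxo6, known mainly from brain and liver, was at 0.922 to 1.95 FPKM and was not high in that library. Foxo3 exceeded Foxo1 by 2.91 times in Dll4+/- replicate 1 and by 1.55 to 2.15 times elsewhere.

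Genes known as FoxO targets were also high in Dll4+/- replicate 1. Of 27 listed targets tested, 14 lay more than 0.5 log2 units above the mean of the other 7 libraries in it and 2 below. Of all genes tested, 30.7% differed by that much there in either direction. The highest value of 19 of the 27 targets was in that library, against 20.9% of all genes tested. Examples chosen after their values were seen were Pdk4, a kinase that blocks glucose oxidation, at 40.9 FPKM against 1.45 to 3.53 elsewhere, and Txnip, an inhibitor of glucose uptake, at 456 against 92.9 to 125. Fbxo32, a ubiquitin ligase of atrophy, was at 9.90 FPKM against 1.73 to 2.31, and Cdkn1a, the cell cycle inhibitor p21, at 155 against 19.6 to 41.7. The list also held targets that did not follow, such as Gadd45a at 6.39 FPKM in that library against 7.38 to 15.6 and Cat, catalase, at 57.2 against 64.1 to 73.3.

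Between genotypes the same list showed little. Of the 27 targets, 15 were higher and 12 lower in Dll4+/- lungs. Their median log2 fold change was 0.09, or 0.01 without Dll4+/- replicates 1 and 4. At an unadjusted p of 0.05, 1 passed, against 3.36% of all genes tested, and 0 passed at an adjusted one. The exception was Klf2, an endothelial flow-response factor, at 123, 88.6, 152 and 88.6 FPKM in Dll4+/- replicates 1 to 4 and at 147, 161, 147 and 172 in Dll4+/+ replicates 3 to 6. The groups overlapped, and limma gave a log2 fold change of -0.50 (SE 0.18) with an adjusted p of 0.811. The study reported lower Klf2 in Dll4+/- lungs, both in its RNA-Seq and by qRT-PCR in independent lung samples. Of 20 upstream regulators of FoxO (among them PI3K, AKT, 14-3-3 and deacetylase genes), 11 were higher and 9 lower, and 0 passed at an unadjusted p of 0.05. Their median log2 fold change was 0.05, or 0.08 without Dll4+/- replicates 1 and 4.

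Other markers moved in the library in which Foxo3 and Foxo4 were high. In Dll4+/- replicate 1, 10 of 10 cell cycle genes lay more than 0.5 log2 units below the other libraries, and their summed level ran from 43.6 to 329 FPKM in Dll4+/- and from 310 to 354 FPKM in Dll4+/+ libraries. Foxm1, a forkhead activator of mitotic genes outside the list studied here, was at 2.05 FPKM there and at 8.54 to 14.01 elsewhere. All 5 of the tested neutrophil markers lay more than 0.5 log2 units above, with summed levels from 86.0 to 1366 FPKM in Dll4+/- and from 115 to 186 FPKM in Dll4+/+ libraries. S100a8 was at 540 FPKM in that library and at 36.5 to 65.8 in the others. No cell cycle or neutrophil marker was at 0 in all libraries. Of the lung cell type markers, 5 of 7 for alveolar type I cells, 3 of 3 tested for secretory airway cells and 4 of 10 for endothelium also lay more than 0.5 log2 units above in that library, and 3 of 7 for alveolar type II cells below. Of all genes tested, 30.7% differed by that much there in either direction. Summed alveolar type I markers ran from 998 to 1872 FPKM in Dll4+/- and from 1170 to 1432 FPKM in Dll4+/+ libraries, and secretory and basal markers from 5798 to 11363 and from 5340 to 10282 FPKM. The part of these cells and states in the FoxO values was not tested.

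**Figure D5:**
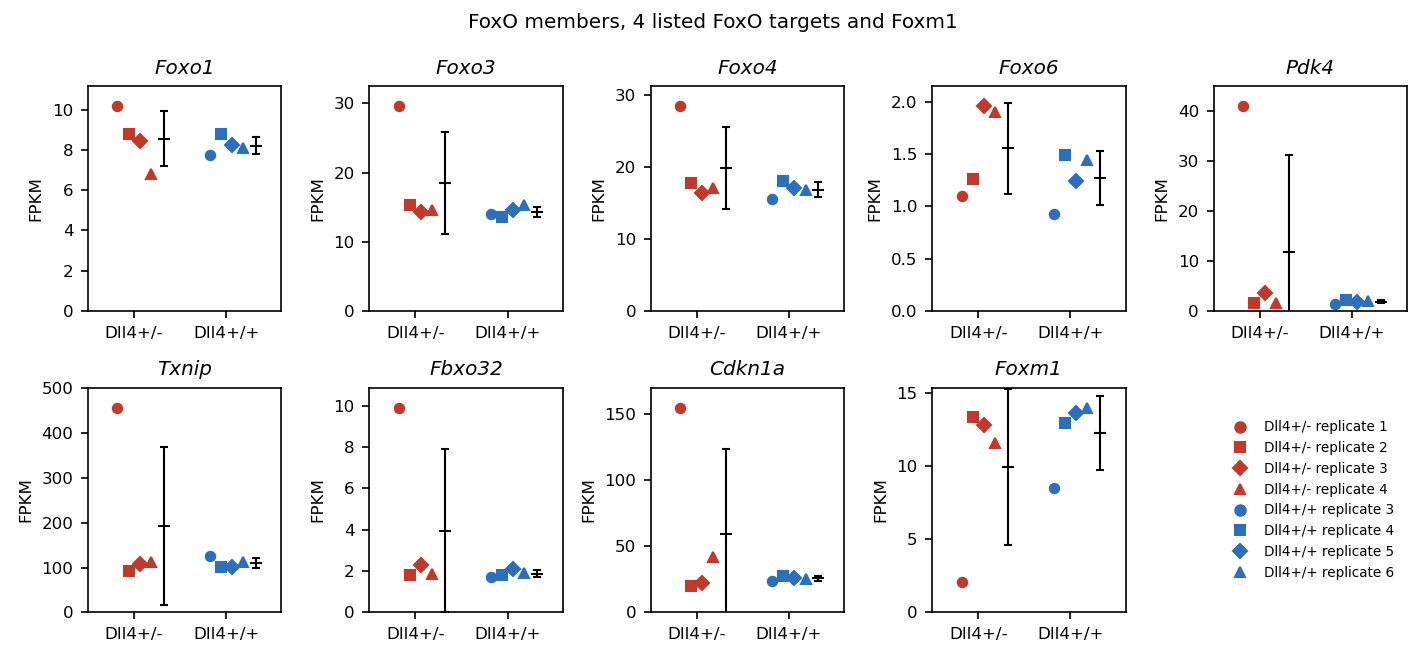
FPKM by genotype of the 4 FoxO members, of 4 listed FoxO targets chosen after their values were seen, and of Foxm1. Each point is 1 library, with the mean and SD beside it (n = 4, bars end at 0 where they would pass it). Dll4+/- replicate 1 (circle) is highest for Foxo1, Foxo3, Foxo4 and the 4 targets and lowest for Foxm1, and lies within the range of the other libraries for Foxo6.

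FoxA factors open chromatin in lung epithelium and bind surfactant gene promoters. Foxa2 was at 13.7, 19.3, 14.7 and 24.6 FPKM in Dll4+/- replicates 1 to 4 and at 19.4, 17.2, 17.5 and 17.6 in Dll4+/+ replicates 3 to 6. The heterozygous libraries enclosed the controls on both sides, and the means of 18.1 ± 4.97 and 17.9 ± 1.01 FPKM (SD, n = 4 each) were close. Without Dll4+/- replicate 4 the log2 fold change of Foxa2 was -0.18, and without Dll4+/- replicate 1 it was 0.088. Foxa1 lay between 8.83 and 11.6 FPKM in the 8 libraries, the smallest fold range of the tested members, 1.32, and Foxa3, the FoxA of liver, between 0.0507 and 0.396 FPKM. The ratio of Foxa2 to Foxa1 was 2.21 in Dll4+/- replicate 4 and 1.46 to 1.97 in the others.

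Of 9 listed FoxA targets in epithelium, 7 were higher and 2 lower in Dll4+/- lungs, with a median log2 fold change of 0.15 and 0 under an unadjusted p of 0.05. Without Dll4+/- replicates 1 and 4 that median was -0.11. In Dll4+/- replicate 4, 5 of the 9 (Sftpb, Sftpc, Sftpd, Nkx2-1 and Cdh1) lay more than 0.5 log2 units above the other libraries. So did 4 of 7 alveolar type II markers, among them Sftpb and Sftpc again. In that library 17.5% of all genes tested differed by that much in either direction, and Foxa2 was highest there. Summed alveolar type II markers ran from 13035 to 40037 FPKM in Dll4+/- and from 19068 to 28247 FPKM in Dll4+/+ libraries, none at 0, and their part in the Foxa2 values was not tested.

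FoxP proteins lack a strong activation domain and pair with one another to repress genes, among them markers of goblet cell fate in airway. Foxp4 was at 29.3, 31.3, 31.7 and 39.6 FPKM in Dll4+/- replicates 1 to 4 and at 27.2, 33.1, 32.6 and 31.0 in Dll4+/+ replicates 3 to 6. Foxp1 was at 19.4, 22.9, 21.5 and 16.5 FPKM in Dll4+/- replicates 1 to 4 and at 18.4, 22.8, 21.2 and 22.8 in Dll4+/+ replicates 3 to 6. Both genes overlapped between genotypes, with log2 fold changes of 0.08 (SE 0.12, limma adjusted p = 0.866) and -0.09 (SE 0.13, limma adjusted p = 0.867). Foxp4 and Foxp1 parted in Dll4+/- replicate 4, where their ratio was 2.40 against 1.36 to 1.54 in the other 7 libraries. Foxp2, expressed in distal epithelium, was at 2.23 to 5.05 FPKM, lowest in Dll4+/- replicate 1 and highest in Dll4+/- replicate 4. Foxp3, the factor of regulatory T cells, was at 0.0455 to 0.202 FPKM, and its exons overlap those of Ccdc22 and Ppp1r3f on the opposite strand, so its fragments are uncertain.

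Foxq1, an epithelial factor, was low in one of the outlying heterozygous libraries and high in the other. It was at 3.23, 4.81, 5.58 and 10.1 FPKM in Dll4+/- replicates 1 to 4 and at 4.69, 5.12, 4.71 and 4.76 in Dll4+/+ replicates 3 to 6. The Dll4+/+ libraries had an SD of 0.199 FPKM and the Dll4+/- libraries of 2.96, with means of 4.82 and 5.94 FPKM (n = 4 each). The log2 fold change was 0.16 (SE 0.25) with all libraries, 0.37 without Dll4+/- replicate 1 and -0.094 without Dll4+/- replicate 4. Foxq1 exons overlap A530084C06Rik on the opposite strand, as Foxo1 exons do Gm20402 and Foxj2 exons Gm26826. The limit of unstated strand assignment applies to these genes too. Foxs1, known from pericytes and other perivascular cells, was at 5.39 to 10.01 FPKM in Dll4+/- and at 6.25 to 8.85 FPKM in Dll4+/+ libraries, with a log2 fold change of -0.11 (SE 0.19) that became -0.29 without Dll4+/- replicate 4.

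FoxJ and FoxK members are expressed in many tissues. Foxj3 was at 13.4, 16.6, 15.6 and 18.7 FPKM in Dll4+/- replicates 1 to 4 and at 13.1, 15.9, 16.3 and 16.3 in Dll4+/+ replicates 3 to 6. Foxk2, which with Foxk1 regulates autophagy and glycolysis genes, was at 11.8, 16.0, 15.9 and 12.7 FPKM in Dll4+/- replicates 1 to 4 and at 13.01, 16.7, 15.7 and 14.6 in Dll4+/+ replicates 3 to 6. The 2 genes had low values in Dll4+/- replicate 1 and Dll4+/+ replicate 3, and Foxk2 was also low in Dll4+/- replicate 4, where Foxj3 was highest. Foxj2 lay between 8.74 and 12.8 FPKM, and Foxk1 between 6.73 and 12.002 FPKM. Foxk1 had its lowest value in Dll4+/+ replicate 3, and so did Foxn3, a repressor of cell cycle and metabolic genes, which was at 0.836 FPKM there and at 1.85 to 4.30 FPKM elsewhere. The log2 fold change of Foxn3 was 0.23 (SE 0.31), and -0.073 without that library. Foxn2 lay between 5.97 and 8.96 FPKM.

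Foxc1 and Foxc2, which act in endothelium and lymphatics and can induce Dll4 in cultured endothelial cells, were scarce. Foxc1 was between 0.729 and 2.02 FPKM in Dll4+/- and between 0.837 and 1.25 FPKM in Dll4+/+ libraries, with a log2 fold change of 0.28 (SE 0.18, limma adjusted p = 0.811). It passed the filter with 4 libraries, 3 of them heterozygous, so its selection leans toward the group in which it was higher. Without Dll4+/- replicate 2 the fold change was 0.44 with an unadjusted limma p of 0.0209, the only alternative in which a member was under 0.05, and no adjusted p was under 0.05 there. Foxc2 was between 0.470 and 1.95 FPKM in Dll4+/- and between 0.723 and 1.39 FPKM in Dll4+/+ libraries and also passed the filter with 4 libraries.

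Foxn4, known for retinal and spinal progenitors, where it induces Dll4, and for multiciliated cells in Xenopus, was below the filter. It was at 0.736, 0.303, 0.821 and 1.55 FPKM in Dll4+/- replicates 1 to 4 and at 0.111, 0.371, 0.578 and 0.334 in Dll4+/+ replicates 3 to 6. The highest value came from Dll4+/- replicate 4, the lowest from Dll4+/+ replicate 3, and Dll4+/- replicate 2 lay below 3 of the 4 controls, so that the groups overlapped. The means were 0.852 ± 0.516 and 0.349 ± 0.191 FPKM (SD, n = 4 each), a ratio of 2.44, with a two-sided exact permutation p of 0.114 and an adjusted p of 0.927. Without Dll4+/- replicate 4 the difference of the means went from 0.503 to 0.272 FPKM (exact permutation p = 0.20). With all libraries this was the smallest exact p of the 31 members tested in this way. The study reported Foxn4 as significantly upregulated in Dll4+/- lungs in its RNA-Seq, among genes it ties to pathological angiogenesis. The mean was higher in Dll4+/- lungs here too, but the exact permutation test (p = 0.114) did not call the difference. The Foxn4 values rest on 6 to 107 recovered fragments a library, and fragments recovered from FPKM can be off by a factor that all libraries share. Foxj1, the master factor of motile cilia, was also highest in Dll4+/- replicate 4, at 35.4 FPKM against 9.16 to 17.3 in the other libraries. In that library 5 of the 6 ciliated markers tested (Foxj1, Ccdc153, Dynlrb2, Ccdc39 and Tekt1) lay more than 0.5 log2 units above the other libraries. Of all genes tested, 17.5% differed by that much there in either direction. The median log2 fold change of the ciliated markers between genotypes was 0.25, or -0.17 without Dll4+/- replicates 1 and 4. Their summed level, from 125 to 232 FPKM in Dll4+/- and from 207 to 283 FPKM in Dll4+/+ libraries, was carried by Tppp3, which was at 76.0 to 144 FPKM in the former and at 165 to 231 FPKM in the latter. None was at 0 in all libraries, and their part in the Foxn4 values was not tested.

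Most of the remaining members were near the limit of detection, which at 3 fragments on a transcript of 2000 bases was 0.0655 FPKM in the deepest library and 0.0874 FPKM in the shallowest. Foxd2 was above that limit in every library, at 0.219 to 0.677 FPKM. Foxd1, a marker of early lung stroma and pericyte precursors, was at 0.0205 to 0.205 FPKM. Foxb2, Foxi2 and Foxi3 were listed at 0 in all 8 libraries, and 8 members were above 0 in 1 to 3 libraries only: Foxb1, Foxe1, Foxe3, Foxh1, Foxi1, Foxl2, Foxr1 and Foxr2. Foxi1, the factor of ionocytes, was above 0 in 1 library. Foxd3, Foxd4 and Foxn1, the last the factor of thymic epithelium, were above 0 in 5 to 7 libraries and never above 0.266 FPKM. None of these members above 0 in at least 4 libraries was under 0.05 in the exact permutation test.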

How the data were processed

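According to the study's methods, RNA from right lungs was poly-A selected, made into NEBNext Ultra libraries and sequenced as read pairs (NovaSeq). CASAVA, STAR and GRCm38.p4 are named in the submitters' processing notes without versions. The authors deposited FPKM values for 35275 genes, with zeros of 239 genes replaced by 0.005, which were set back to 0. The deposited table also holds the authors' own ratios and p-values, which were not used. Depth was recovered as the smallest whole fragment numbers that give the FPKM values (100% of tested genes, tolerance 0.01). Positions came from GENCODE M21 (GRCm38).

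The 13610 genes that reached an FPKM of 1 in 4 libraries or more were tested with limma 3.58.1 (R 4.3.3) on log2(FPKM + 1), with a mean-variance trend, Dll4+/- against Dll4+/+. P-values were adjusted by Benjamini-Hochberg over all genes tested. Exact permutation tests were two-sided and could not go below 0.0286. Tests were checked on simulated data. Replicates are separate pups according to the study, so p-values measure the spread between animals. Alternatives covered pseudocounts, filters, scaling, library weights, labelled sex, a replicate block, voom on recovered fragments and left-out libraries. Labelled sex was balanced between genotypes, but the label of Dll4+/- replicate 2 goes against its Xist and Ddx3y values. Sex by expression was not adjusted for.

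Members and gene lists were chosen with earlier results of these data known. The comparisons of single libraries with a limit of 0.5 log2 units, the ratios between members, the subfamily sums, the comparison of spreads and the promoter motifs were chosen after the members' values had been seen and carry no test. Values in every library are given for the 8 most abundant members, for Foxn4 and for any member called, and for Foxo3, Foxl1, Foxq1 and others chosen after their values were seen. The values of 1 member are not reported here.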

Additional observations from a re-analysis of the deposited data

Results flagged for a closer look

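In 70 groups of 4 libraries, taken over the members above 0 in at least 4 libraries and Dll4, Foxj1, Foxm1 and Fendrr, the gap of the highest or lowest library to the next was set against the whole range of the group, and 9 exceeded the 95% critical value of Dixon's test. Chance flags about 5% of groups. Of the 9, 3 lay in Dll4+/- replicate 1, where Foxo3 was at 29.6 FPKM against 14.3 to 15.4 in the other heterozygous libraries, Foxo4 at 28.5 against 16.4 to 17.8, and Foxm1 at 2.05 against 11.6 to 13.4. A further 3 lay in Dll4+/+ replicate 3, where Foxa2 was at 19.4 FPKM against 17.2 to 17.6 in the other control libraries, Foxj3 at 13.1 against 15.9 to 16.3, and Foxj2 at 8.74 against 10.9 to 11.1. Foxs1 was at 10.01 FPKM in Dll4+/- replicate 4 against 5.39 to 6.14 in the other heterozygous libraries. Foxc1 was at 1.25 FPKM in Dll4+/+ replicate 5 against 0.837 to 0.902, and Foxp3 at 0.145 FPKM in Dll4+/+ replicate 6 against 0.0585 to 0.0694 in the other controls.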

How the results depend on the processing

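Over 19 alternatives the 22 tested members gave 418 fitted values, of which 382 kept their direction and their side of the unadjusted threshold of 0.05, 35 changed sign and 1 newly passed. Labelled sex (balanced between genotypes), the looser filters and 0.005 kept as deposited cannot change a member's fold change. Their values are in these counts but say nothing about the stability of its sign. Members changing sign numbered 16, none of them called in any of the fits, and 6 kept their sign throughout. The cause of these changes was not tested. The count of members called was 0 under every alternative that kept all libraries, and 0 to 1 when single libraries were left out, the 1 being Foxc1 without Dll4+/- replicate 2.

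Without Dll4+/- replicates 1 and 4 the log2 fold changes were 0.14 for Foxf1, 0.0077 for Foxf2, 0.062 for Foxp1, 0.087 for Foxk2, 0.086 for Foxn2 and -0.10 for Foxc2, and the difference in mean Dll4 FPKM was -9.51 (exact permutation p = 0.133). With library weights they were -0.015 for Foxp4, -0.047 for Foxj2, -0.0096 for Foxk1 and -0.11 for Foxc2. Foxc2 was also at -0.015 with a pseudocount of 0.1 and at -0.029 with voom on recovered fragments. Numbers 3 and 4 occur in both genotypes, and libraries with the same number did not deviate together (correlations across genes of -0.23 and -0.06). With so few shared numbers this cannot decide whether the numbers pair the pups. The study states that controls were littermates, but the labels do not give litters. With a replicate block the genotype difference comes only from numbers 3 and 4, since the other numbers occur in a single genotype. These libraries include Dll4+/- replicate 4 and Dll4+/+ replicate 3, which stood apart. That fit gave 16 genes at an adjusted p of 0.05, 0 of them members. Its log2 fold changes were -0.61 for Dll4 (no longer under an unadjusted limma p of 0.05), 0.068 for Foxf1, 0.054 for Foxa2, 0.069 for Foxa1, -0.10 for Foxo1 and 0.054 for Foxp2.

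When single libraries were left out, log2 fold changes ran from -0.0055 to 0.14 for Foxp4, from -0.15 to 0.00029 for Foxp1, from -0.18 to 0.088 for Foxa2, from -0.018 to 0.13 for Foxj3, from -0.10 to 0.0045 for Foxa1, from -0.0044 to 0.13 for Foxj2, from -0.093 to 0.16 for Foxk1, from -0.036 to 0.14 for Foxo1, from -0.094 to 0.37 for Foxq1, from -0.25 to 0.054 for Foxp2, from -0.073 to 0.40 for Foxn3 and from -0.14 to 0.19 for Foxc2. The difference in mean Dll4 FPKM ran from -14.8 to -11.6. Over all genes, library weights gave 3 calls at an adjusted p of 0.05 where the main fit gave 0. At an unadjusted p of 0.05 the main fit gave 457 genes, library weights 775, no filter 933, a filter of 0.1 FPKM 701, and leaving out single libraries 230 to 957, the lowest without Dll4+/+ replicate 3 and the highest without Dll4+/- replicate 2.

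Members below the filter rest on few fragments, and 4 libraries a genotype left intervals of 0.251 to 0.695 log2 units on either side of a fold change.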
